A study of Mus musculus with 9 samples.

Results

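Tumour cells of the mouse olfactory bulb (OB) were compared with astroglia (AG) gene family by gene family. The comparison used 6 of the 9 RNA sequencing libraries of the series, chosen by their titles: OB_257, OB_287 and OB_295 against AG_1, AG_2 and AG_3. The other 3 libraries, brainstem tumour cells (BS_287, BS_295 and BS_296), entered the same fit, and their values are given beside those of OB. OB and BS cells came from animals of a 129;C57BL/6 mix labelled with Foxr2 overexpression and p53 cko, and AG cells from C57BL/6 with p53 DN and Nf1 shRNA. Foxr2 is a forkhead transcription factor, p53 a tumour suppressor and Nf1 a brake on RAS signalling. The labels therefore name a p53 alteration in every group, the astroglia included, of a different kind in AG than in the tumours. Strain, genotype and cell source differ together between OB and AG and cannot be told apart. Neither ages, nor the promoter or Cre line behind each allele, nor culture conditions are in the labels. They also leave unsaid whether replicates are separate animals or cultures, so a p-value speaks of the spread among these libraries only, and that spread may be technical.

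A gene family is a set of related genes whose products do similar work, and cells of different origin often use different members for the same task. Glia are a textbook case: astrocytes, oligodendrocyte precursors and myelinating cells differ in which sodium pump subunits, gap junction proteins, sugar and sulfate enzymes and regulators of the actin cytoskeleton they use. Cells with strong actin tension and contact to a stiff surface typically express YAP and TAZ target genes and contractile genes. Cells of the neural lineage typically express neural adhesion molecules, synaptic release genes and neural RNA-binding proteins. Neither tension nor contact was measured here.

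Values are normalized reads per gene and library, and depth ran from 11300273 to 19868282 reads per library over all 9. In each sentence below, OB values are in the order OB_257, OB_287 and OB_295, AG values in the order AG_1, AG_2 and AG_3, and BS values in the order BS_287, BS_295 and BS_296. A fold is the ratio of the group means of normalized reads, unless the lower group had 3 reads or fewer. For a gene with 0 reads in a group it is a lower bound, taken against a floor of 3 reads per library (2.91 normalized reads in AG and 3.14 in OB). For a gene with 1 to 3 reads in a group it is the ratio of the summed reads, scaled by the summed size factors of each group. That ratio can differ from the ratio of group means and is given with an exact 95% counting interval. Both cover counting error alone, because PCR copies of a molecule cannot be recognized in these reads. Differences on the log2 scale are of log2(value + 1) and come with the standard error (SE) of the fit. A level can be compared between libraries but not between genes, since gene length is not taken out and genes with several RefSeq transcripts have low values in this table. Foxr2 itself, the overexpressed gene, read 4505, 6814 and 5969.8 in OB and 0, 0.986 and 0 in AG, in keeping with their genotype labels. AG libraries were alike (correlation of log2 values 0.992 to 0.993), and OB libraries less so (0.861 to 0.943). The median gene had an SD of 0.483 (log2, n = 3) in OB and 0.116 in AG. Astrocyte markers summed to between 5756 and 6295 in AG and between 8702 and 39503 in OB, and of 5 tested 3 were called higher in OB and 1 lower. In AG that sum was mostly Gja1, the connexin of astrocytes (4961, 5105 and 5396 in AG and 1.11, 662 and 395 in OB), and Slc1a3, whereas Gfap, Aqp4 and Aldh1l1 were close to 0 in both groups (0.834, 2.96 and 3.27 for Gfap in AG). The markers called higher in OB were S100b, Aldoc and Atp1b2. The limit on levels between genes holds here and in the lists below. A value close to 0 in both groups does not show that a gene is absent, and a sum weighs its genes unequally. Fibroblast markers summed to between 35664 and 46443 in AG against 15.5 to 499 in OB, with 4 of 6 tested called lower and none higher. Most of that sum was Col1a1, a collagen chain (46039, 41542 and 35279.8 in AG), while Dcn, Postn and Lox were low in AG (21.7, 13.8 and 10.9, 2.5, 6.9 and 6.53 and 20.8, 9.86 and 5.44) and at 0 in OB, and Thy1 was at 0 in AG and read 0, 307 and 280.4 in OB. Pericyte and smooth muscle markers summed to between 58739 and 62387 in AG against 1393 to 3953 in OB. Most of the AG sum was Acta2 and Tagln, 3 of 5 tested were called lower, and Notch3 (1177, 1178 and 1497 in OB and 28.3, 18.7 and 30.5 in AG) and Cspg4 (98.4, 2007 and 2288 in OB and 10.8, 10.8 and 5.44 in AG) were called higher. The oligodendrocyte lineage list summed to between 41056 and 75109.5 in OB against 99.1 to 106.0 in AG, with Olig2, Mag and Cldn11 at 0 in AG, and 6 of 7 tested called higher. Of 10 microglial markers only 3 had values, with low sums in both groups (59.2 to 71.0 in AG, 68.5 to 81.8 in OB), and neither of the 2 tested was called. The part of the astrocyte, fibroblast, smooth muscle and oligodendrocyte lists in the differences given below was not tested. In bulk libraries, fewer cells of a type and less RNA per cell cannot be told apart.

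Of 10576 genes tested, limma called 1687 higher and 2008 lower in OB at an adjusted p under 0.05, which is 34.9% of genes. With upper-quartile rescaling, which moves the median log2 difference of all genes from -0.01 to 0.18, the split was 2158 higher and 1675 lower. Leaving out AG_1, AG_2 or AG_3 left 1115, 1109 and 1121 higher genes. A stricter call is therefore used for families and single genes. A gene is said to have risen or fallen where limma called it, the change was at least 2-fold, and every alternative that tested it gave the same call. The 23 alternatives cover pseudocounts, filters, scalings, edgeR, DESeq2 and each library left out. Some named genes, such as Abcg1 and Cntn1, were tested in 22 of them, because genes with several rows or low values are left out of some filters. By that rule 938 genes rose (8.87%) and 1227 fell (11.6%), 20.5% of genes in all. For 6166 genes (58.3%) the OB and AG libraries did not overlap, 2911 above (27.5%) and 3255 below (30.8%). A total of 63 families in 8 themes held 1299 tested genes. Counts of members that rose or fell are to be read beside the 8.87% and 11.6% of all genes, and several families lie near these shares. Each gene named below as having risen or fallen also had OB and AG libraries that did not overlap and averaged 50 normalized reads or more on the higher side. Between OB and BS, limma called 0 genes (1019 at an unadjusted p under 0.05), edgeR 0 (1109) and DESeq2 233 (1248), so BS values are set beside OB values without a claim of difference.

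**Figure D1:**
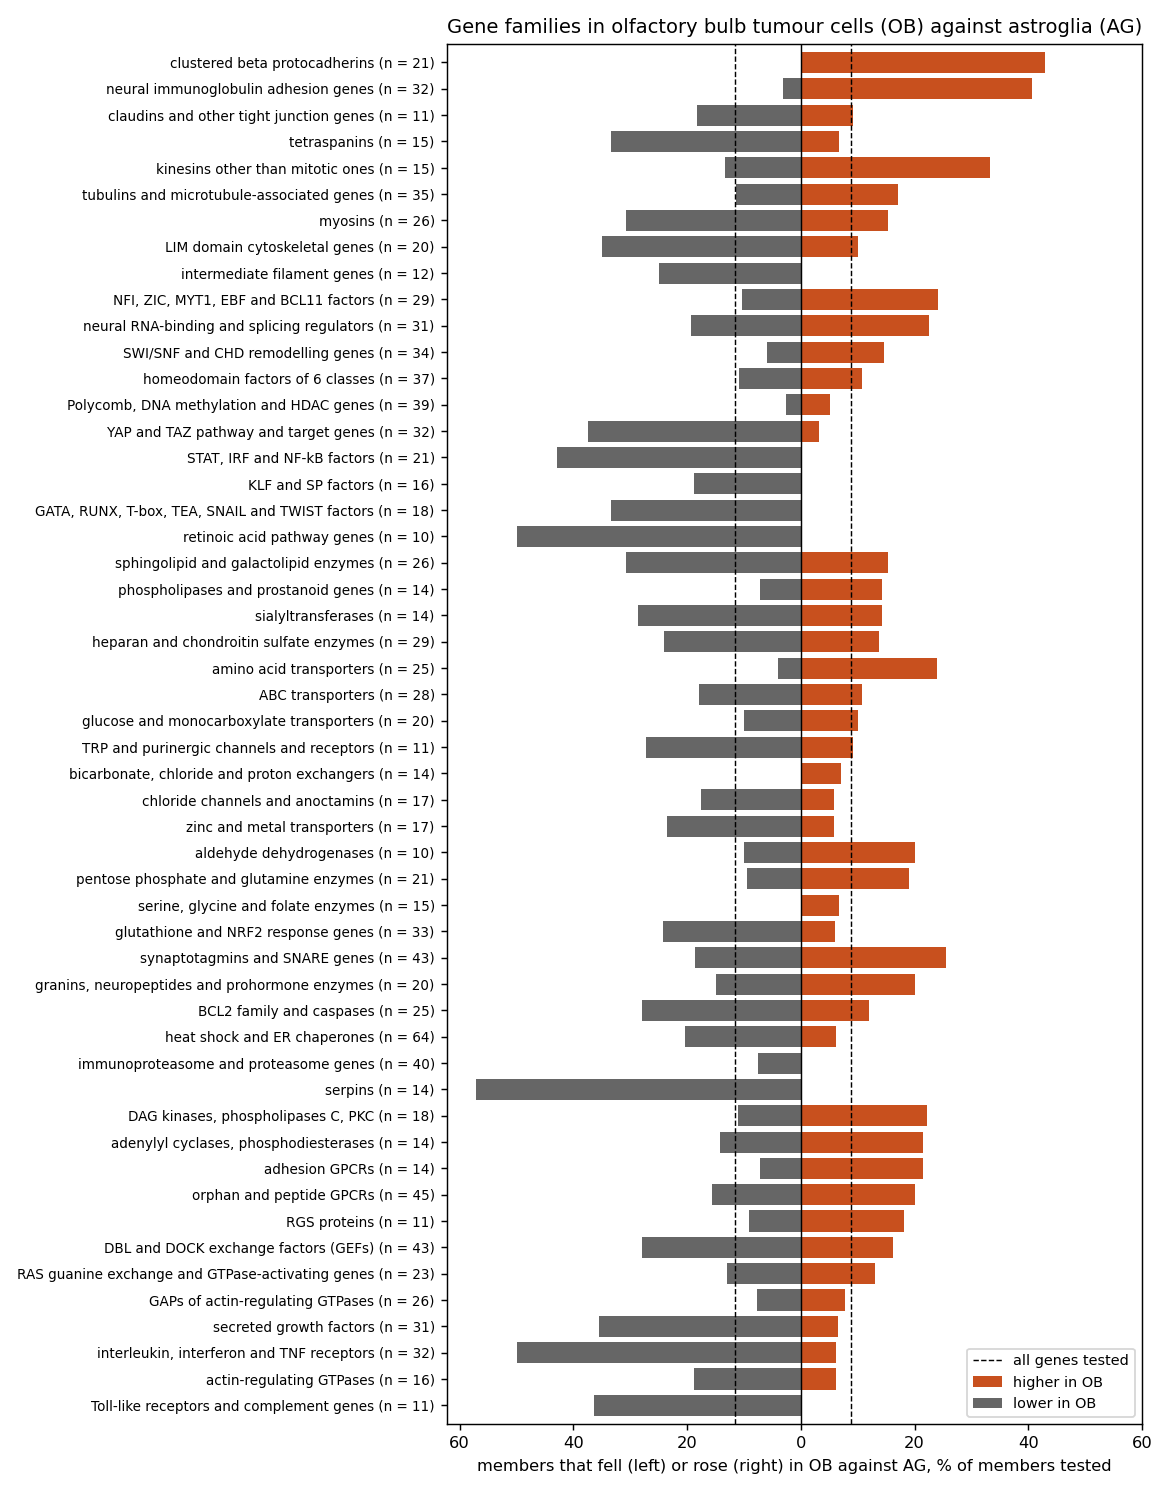
Share of tested members that fell (grey bars, left) or rose (orange bars, right) in OB against AG in each family with at least 10 tested members, in % of members tested; dashed lines give the shares over all genes, 11.6% and 8.87%. Beta protocadherins and neural immunoglobulin genes have the longest bars to the right, and serpins, cytokine receptors and retinoic acid genes the longest to the left.

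The sharpest differences were genes with no read at all in one group. In 113 genes all AG libraries were at 0 and OB averaged at least 50 normalized reads, and 94 of them were called. In 37 genes all OB libraries were at 0 and AG averaged at least 50, and 37 were called. Since these sets were chosen by their values, they are described only. Among the first were the neural transcription factor Zic1 (211, 2534 and 1477 in OB) and the cell adhesion gene Cdh20 (942, 1073 and 1141). Among the second were the matrix protease Mmp3 (1728, 1582 and 1665 in AG), Fam110c (1292, 1251 and 1219) and the small GTPase activator Arhgef5 (3232, 3281 and 3307). All 3 of these were silent in OB, at 0 reads in each library, which at a floor of 3 reads per library allows a level of up to 3.14 normalized reads.

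The regions around the start sites of both sets differ in base content, and their sequences are shown for that reason. RefSeq promoter windows (build GRCm38.p6, 250 bases before to 50 after a start) could be matched to 93 of the 113 genes (82.3%) and 31 of the 37 (83.8%), with a window for each listed start. The windows of genes silent in AG held a median of 13 CG dinucleotides and 57.7% G and C, those of genes silent in OB 3 CG dinucleotides and 45.3%, and all 32851 windows that RefSeq lists here 7 CG dinucleotides and 52.7%. In the first 3 sequences each CG is in capitals. Zic1 (chr9:91365719-91366018, minus strand, 31 CG) and Cdh20 (chr1:104768270-104768569, plus strand, 18 CG) are silent in AG, and Arhgef5 (chr6:43265394-43265693, plus strand, 28 CG) is silent in OB and is rich in CG unlike most of its set.
Zic1: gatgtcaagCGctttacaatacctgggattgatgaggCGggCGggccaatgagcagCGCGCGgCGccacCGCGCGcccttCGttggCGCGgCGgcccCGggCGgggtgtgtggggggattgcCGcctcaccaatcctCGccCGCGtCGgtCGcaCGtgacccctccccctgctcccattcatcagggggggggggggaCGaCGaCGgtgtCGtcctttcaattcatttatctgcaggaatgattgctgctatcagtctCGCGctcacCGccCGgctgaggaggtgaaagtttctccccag
Cdh20: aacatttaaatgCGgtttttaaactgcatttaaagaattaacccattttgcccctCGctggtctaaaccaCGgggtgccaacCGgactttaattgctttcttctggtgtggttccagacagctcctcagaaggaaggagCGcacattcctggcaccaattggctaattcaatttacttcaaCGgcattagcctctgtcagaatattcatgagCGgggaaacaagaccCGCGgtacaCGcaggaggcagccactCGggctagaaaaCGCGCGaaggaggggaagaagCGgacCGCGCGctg
Arhgef5: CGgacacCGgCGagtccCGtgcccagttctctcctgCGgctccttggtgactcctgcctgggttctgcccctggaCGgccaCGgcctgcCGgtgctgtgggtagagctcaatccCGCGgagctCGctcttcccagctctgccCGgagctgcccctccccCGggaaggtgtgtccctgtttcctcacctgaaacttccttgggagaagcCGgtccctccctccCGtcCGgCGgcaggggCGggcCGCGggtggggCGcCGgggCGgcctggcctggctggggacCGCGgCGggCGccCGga
The letters TGANTCA were searched on both strands. They include the consensus of AP-1 (FOS and JUN factors), TGACTCA or TGAGTCA, and also TGATTCA and TGAATCA, which are not that consensus. They occurred in 7 of 35 windows of genes silent in OB (20.0%), in 4 of 108 windows of genes silent in AG (3.7%) and in 7.81% of all windows. The consensus alone was in 3 of 35 (8.57%), 2 of 108 (1.85%) and 5.2% of all, so most of the 7 windows held the other letters. Among all windows with a CG count between the quartiles of each set, the share with TGANTCA was 10.8% (for genes silent in OB) and 7.36%. Mmp3 (chr9:7445572-7445871, plus strand, 1 CG) and Fam110c (chr12:31073718-31074017, plus strand, 16 CG) are shown with the TGANTCA match in capitals, which is the consensus in Mmp3 and TGATTCA in Fam110c.
Mmp3: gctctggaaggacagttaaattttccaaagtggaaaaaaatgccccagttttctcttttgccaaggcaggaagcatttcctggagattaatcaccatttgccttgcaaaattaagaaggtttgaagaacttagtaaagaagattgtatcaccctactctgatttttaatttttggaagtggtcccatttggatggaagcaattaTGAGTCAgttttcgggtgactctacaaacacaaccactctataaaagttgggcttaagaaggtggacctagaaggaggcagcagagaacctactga
Fam110c: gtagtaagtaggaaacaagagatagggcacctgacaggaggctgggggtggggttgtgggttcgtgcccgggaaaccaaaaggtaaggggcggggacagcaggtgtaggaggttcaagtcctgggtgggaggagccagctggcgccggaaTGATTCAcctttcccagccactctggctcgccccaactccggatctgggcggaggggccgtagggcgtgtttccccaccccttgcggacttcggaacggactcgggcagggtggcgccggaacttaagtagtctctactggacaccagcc
Of 3 other motifs, TATAAA on either strand was in 25.7% of windows silent in OB, 5.56% of those silent in AG and 13.6% of all. The TEAD letters GGAATG on either strand were in 5 of 35, 13 of 108 and 14.7%, and the E-box CAGCTG in 11.4%, 20.4% and 16.3%. A match is a description of the letters and not a bound site.

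**Figure D2:**
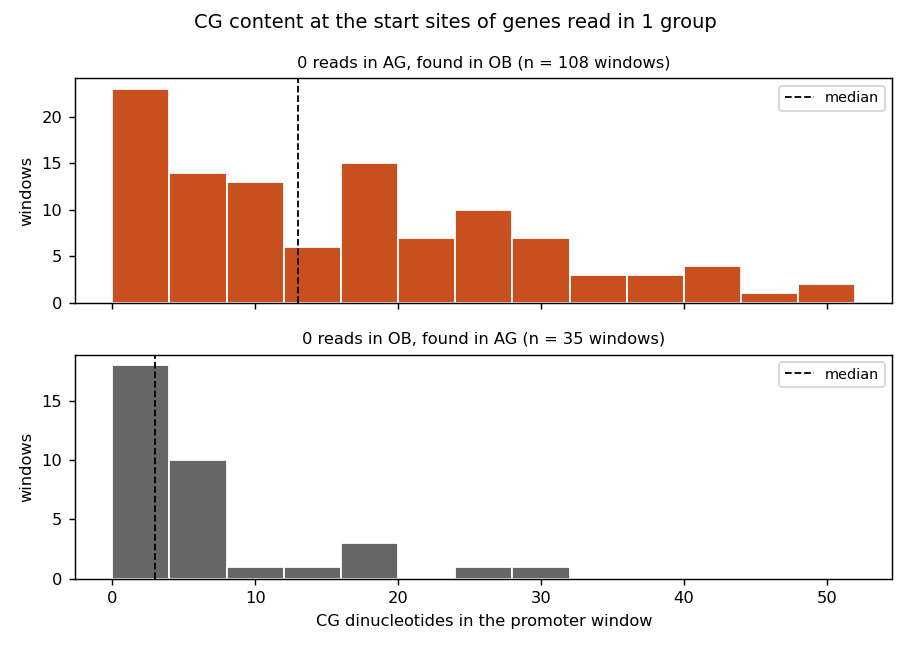
Number of promoter windows (vertical axis) by their count of CG dinucleotides (horizontal axis) for genes with 0 reads in AG (top) and genes with 0 reads in OB (bottom); dashed lines are the medians, 13 and 3. Most windows of the lower set lie at the left end of the axis, and the upper set spreads over its whole length.

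Of the sodium and calcium pump genes, 4 of the 9 tested members rose and 1 fell, and the sodium pump was involved in both directions. Atp1b2, the beta subunit typical of glia, read 1978, 3641 and 9799 in OB and 9.17, 4.93 and 7.62 in AG. OB_295 was highest and OB_257 lowest, and all 3 lay far above AG (709.8-fold higher, log2 difference 9.01, SE 0.84). Fxyd6, a small regulator of the pump, was at 0 in AG and read 304, 525 and 692 in OB (at least 174-fold higher). Atp1b1, the widespread beta subunit, went the other way with 59.7, 274 and 212 in OB and 824, 842 and 844 in AG (4.6-fold lower, log2 difference -2.46, SE 0.61). The adjusted p-value was 9.86e-05 for Atp1b2, 2.33e-06 for Fxyd6 and 0.014 for Atp1b1 (limma with Benjamini-Hochberg adjustment). In BS, Atp1b2 read 1522, 8925 and 13482.

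Among amino acid transporters 6 of the 25 tested members rose and 1 fell (median log2 difference 0.86 over the family). Slc1a1, a glutamate transporter known from neurons, read 1566, 266 and 5558 in OB and 2.5, 5.91 and 0 in AG (878-fold higher). OB_287 was lowest and OB_295 highest, and BS read 22.6, 354 and 382. Slc7a8, a carrier of neutral amino acids, read 204, 44.7 and 151 in OB and 0, 0.986 and 0 in AG (404-fold higher, with a counting interval of 72.1 to 16004). Slc1a4, which carries serine and alanine, was 3.18-fold higher (log2 difference 1.58, SE 0.32), and Slc38a9, the arginine sensor of the lysosome, 3.11-fold higher. Slc7a2, which takes up arginine and other cationic amino acids, fell (15.5, 6.66 and 14.1 in OB and 159, 202 and 227 in AG, 16.2-fold lower). The GABA carrier Slc6a11 was at 0 in AG and read 0, 832 and 8467 in OB. Limma did not call it with all libraries (adjusted p = 0.14), and called neither of the 2 tested carriers of its Slc6 family. Without OB_257, the only OB library at 0, limma called it higher, which is no support for a rise.

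Of glucose and monocarboxylate carriers 2 of the 20 tested members rose and 2 fell. Slc2a13, which imports myo-inositol with protons, read 1768, 599.5 and 1023 in OB and 10.8, 17.7 and 22.9 in AG (65.9-fold higher), and Slc2a12 157, 105 and 593 in OB and 7.5, 12.8 and 3.27 in AG (36.3-fold higher). Slc2a1, the glucose carrier GLUT1, fell, with 1278, 1437 and 934 in OB and 4121, 3888 and 3473 in AG (3.15-fold lower, log2 difference -1.67, SE 0.19), and so did Slc2a5, the fructose carrier (11.2-fold lower). GLUT1 remained well above the floor in all 9 libraries. In BS, GLUT1 read 1219, 1097 and 980.3. Adjusted p-values of these 4 ran from 0.000311 to 0.00686.

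Of 28 ABC transporters, 3 rose and 5 fell. The drug and glutathione exporters Abcc1 (2388, 1442 and 1391 in OB and 3986, 4228 and 4081 in AG) and Abcb1b (349, 281 and 315 in OB and 1017, 1068 and 1067 in AG) fell (2.35-fold lower and 3.34-fold lower). Abcb6, a porphyrin transporter, was 5.68-fold higher (2273, 1838 and 1964 in OB and 357, 343 and 369 in AG), and Abcg1, a sterol exporter, was 117-fold higher, with a counting interval of 32 to 973. Among 17 metal transporters tested, 1 rose and 4 fell, with Slc30a4, a zinc exporter into vesicles, 5.26-fold lower. Of the channels, the polycystins Pkd1 and Pkd2 were 2.23-fold lower and 2.65-fold lower. Clic1, an intracellular chloride channel protein, fell (601, 3416 and 916 in OB and 14103, 13478 and 13042 in AG, 8.23-fold lower), and so did Lrrc8c and Lrrc8e, subunits of the volume-regulated anion channel (2.45-fold lower and 22-fold lower). Clcn6, a late endosomal chloride-proton exchanger, was 2.58-fold higher. Of 3 aquaporins, Aqp11 was 3.76-fold higher and Aqp5, the water channel of secretory glands, 59.6-fold lower (3.32, 11.4 and 12 in OB and 551, 513 and 526 in AG). Slc26a7, an anion exchanger, rose (118, 31.4 and 37 in OB and 1.67, 1.97 and 1.09 in AG, 39.5-fold higher), as did the organic ion carriers Slc22a17 (38.9-fold higher) and Slc22a23 (3.37-fold higher), while Slco3a1 was 6.26-fold lower.

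**Figure D3:**
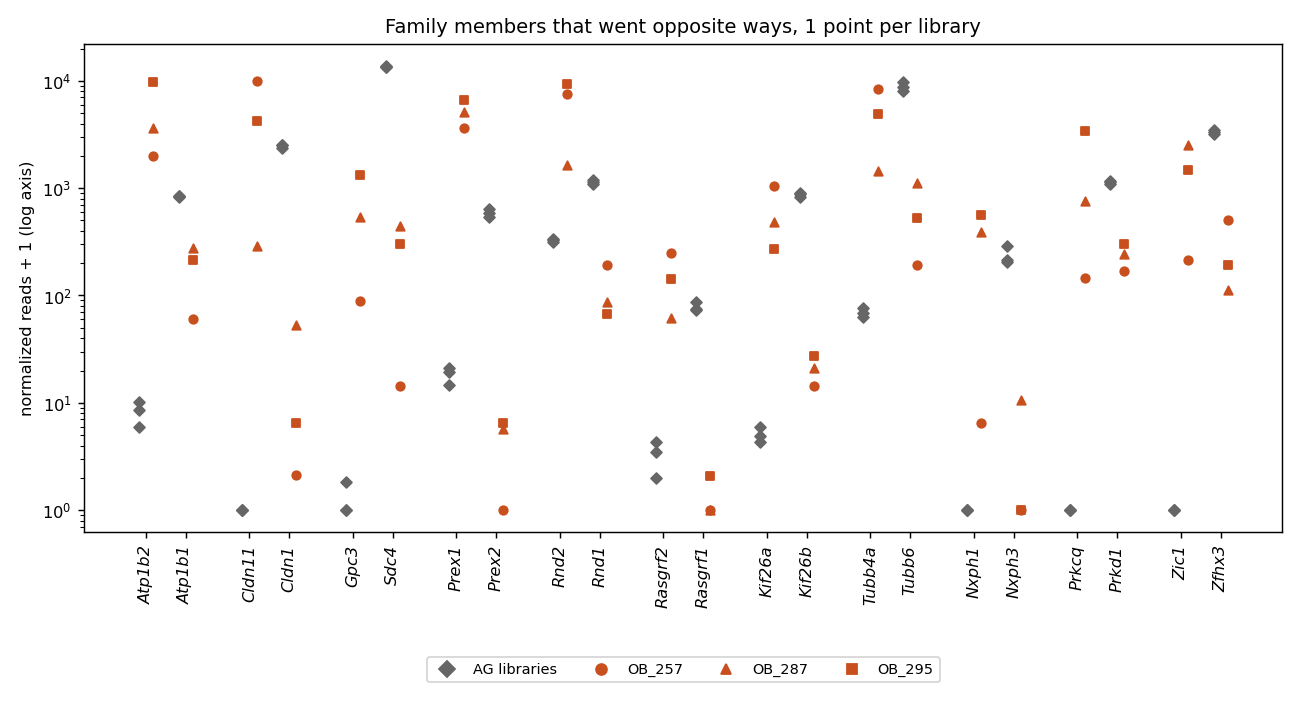
Normalized reads plus 1 (log axis) of 22 genes in 11 families, 1 point per library, AG in grey and each OB library with its own symbol. In each pair the left gene lies higher in OB and the right gene lower, as for Atp1b2 and Atp1b1 or Prex1 and Prex2. The pairs were chosen for their opposite directions, and the groups do not overlap because the rule for naming required it.

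Of the clustered beta protocadherins, cell surface proteins with which neurons tell their own branches from others, 9 of 21 tested rose, and the family median was 2.36 (log2) against -0.01 for all genes. Limma alone called 12 higher. Pcdhb11 read 265, 267 and 291 in OB and 5.84, 1.97 and 2.18 in AG (82.5-fold higher, log2 difference 6.10, SE 0.48), and its 3 OB values lay close together. Pcdhb6 read 358, 171 and 238 in OB and 3.34, 0 and 3.27 in AG (116-fold higher) and Pcdhb10 was 40.7-fold higher (log2 difference 5.22, SE 0.53). In BS the family median against AG was 1.18, and Pcdhb11 read 157, 78.9 and 55.2. The genes of this cluster resemble each other closely and lie side by side, so reads may have been split between copies, and single members are uncertain.

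Of neural immunoglobulin adhesion genes 13 of the 32 tested members rose and 1 fell, with a median of 2.83 and 8 members at 0 reads in a group. Ncam2, a neural cell adhesion molecule known from olfactory axons, was at 0 in AG and read 1277, 359.7 and 551 in OB (at least 251-fold higher). Dscam and Dscaml1, which space neurites and cell bodies, read 298, 777 and 2486 and 561, 99.9 and 1093 in OB. Dscaml1 was at 0 in AG (at least 201-fold higher), and Dscam had 2 reads there over the group (1837-fold higher, with a counting interval of 508 to 15175). Cntn1, a contactin of axons and glia, was at least 124-fold higher (311, 108 and 664). Nectin3, an adhesion molecule of adherens junctions, fell (190.1, 558 and 338 in OB and 2276, 2351 and 2639.6 in AG, 6.69-fold lower). Adjusted p-values of these 5 ran from 0.000102 to 0.00137. In BS, Ncam2 read 24.3, 864 and 319 and Dscam 44.4, 2845 and 517, lowest in BS_287 in both cases.

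Of the desmosome and hemidesmosome genes 4 of 8 fell (median -2.53). Ppl, periplakin, read 4392, 4424 and 3992 in AG and 0, 0 and 2.17 in OB (6161-fold lower, with a counting interval of 1705 to 50881), Pkp2, a plakophilin, 1147, 1082 and 1125 in AG and 0, 37.1 and 38 in OB (44.6-fold lower) and Jup, plakoglobin, 7373, 6759.9 and 6113 in AG and 1670, 273 and 499.9 in OB (8.29-fold lower). OB_257 kept the highest Jup level and had no Pkp2 read. Among connexins and pannexins, 2 of the 8 tested members rose and 2 fell. Gjc3, the connexin of oligodendrocytes, read 14685, 1142 and 8887 in OB and 1.67, 0 and 1.09 in AG (8229-fold higher, with a counting interval of 2815 to 39905). Panx1, which forms large pores for ATP, was 4.22-fold higher (log2 difference 2.06, SE 0.34). Cldn11, the tight junction protein of myelin, was at 0 in AG and read 10013, 290.3 and 4243 in OB (at least 1667-fold higher). Cldn1, a tight junction protein of epithelia, read 2390.5, 2509 and 2526 in AG and 1.11, 52.3 and 5.43 in OB (126-fold lower), and Tjp1, the scaffold ZO-1, was 3.14-fold lower.

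Of glypicans and syndecans 2 of the 8 tested members rose and 3 fell. The lipid-anchored glypicans Gpc3 and Gpc2 rose, and the syndecans Sdc1, Sdc2 and Sdc4, which span the membrane, fell. Another glypican, Gpc4, was called lower by limma (58.6, 550.1 and 765 in OB and 3429, 3499.7 and 3396 in AG, adjusted p = 0.0166) but not under every alternative. Gpc3 read 88.4, 532 and 1311 in OB and 0.834, 0 and 0 in AG (2009.6-fold higher, with a counting interval of 360.2 to 79418), with OB_257 lowest of the OB libraries, and Gpc2 was 3.14-fold higher. Sdc4, a syndecan of focal adhesions, read 13555, 13440 and 13688 in AG and 13.3, 439 and 301 in OB (54-fold lower, log2 difference -6.78, SE 1.09). Sdc2 was 7.37-fold lower and Sdc1 4.2-fold lower. Of 15 tetraspanins 5 fell and 1 rose: Cd9 read 22128, 21354 and 23099 in AG and 2057, 997 and 1744 in OB (13.9-fold lower), Tspan11 was 21.4-fold lower, Tspan4 40.9-fold lower and Tspan17 3.84-fold lower, and Tspan13 was 3.5-fold higher.

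Among heparan and chondroitin sulfate enzymes 4 of the 29 tested members rose and 7 fell. Hs3st3b1, which adds a rare 3-O sulfate to heparan chains, read 161, 631 and 563 in OB and 7.5, 14.8 and 8.71 in AG (43.7-fold higher), and Chst3, which sulfates chondroitin, read 3962, 879 and 1536 in OB and 105, 98.6 and 89.3 in AG (21.8-fold higher). The dermatan sulfate epimerases Dse (6.18-fold lower) and Dsel (11-fold lower) fell, and so did the dermatan sulfotransferase Chst14 (1331, 1231 and 1158 in AG and 284, 265 and 143 in OB, 5.37-fold lower). Sulf1, which removes sulfates from heparan outside the cell, read 284, 250.3 and 278 in AG and 0, 0.952 and 0 in OB (780.4-fold lower, with a counting interval of 139.7 to 30859). Adjusted p-values of the 7 named enzymes ran from 3.85e-06 to 0.00704.

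Among sialyltransferases 2 of the 14 tested members rose and 4 fell (median -1.56). St8sia1, which makes the ganglioside GD3 typical of neural precursors, read 987, 2691 and 2188 in OB and 3.34, 2.96 and 6.53 in AG (457-fold higher, log2 difference 8.48, SE 0.48). St6gal2 was at 0 in AG and read 207, 943 and 1461 in OB (at least 299-fold higher). The alpha-2,3 enzymes St3gal2 and St3gal4 fell (3.39-fold lower and 5.6-fold lower), and St8sia6 was 22.2-fold lower. In the OB libraries St3gal4 read 564, 616 and 674, all below the AG values of 3484, 3408 and 3494.

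Of sphingolipid and galactolipid enzymes 4 of the 26 tested members rose and 8 fell. Fa2h, which hydroxylates the fatty acids of myelin lipids, read 1139, 42.8 and 878 in OB and 0.834, 0.986 and 1.09 in AG (684-fold higher, with a counting interval of 234 to 3319.9), and OB_287 was far below the other OB libraries. Elovl6 and Elovl4, which lengthen fatty acids, were 2.59-fold higher and 2.34-fold higher. Cers4, a ceramide synthase, fell (1638, 1829 and 1704 in AG and 48.6, 138 and 165 in OB, 14.7-fold lower), and so did the sphingomyelin synthase Sgms2 (11.3-fold lower), the ceramidase Asah2 (4.19-fold lower) and Ugcg, the first enzyme of glycolipid synthesis (6510.2, 7089 and 7484 in AG and 1037, 2235 and 1862 in OB, 4.11-fold lower). Another ceramide synthase, Cers3, was 4.11-fold higher. Of the prostanoid genes, Ptgds, which makes prostaglandin D2, read 2003, 509 and 2563 in OB and 8.34, 6.9 and 15.2 in AG (166-fold higher). Ptgs2, the inducible cyclooxygenase, read 4952, 5429 and 5615 in AG and 1.11, 25.7 and 50 in OB (208-fold lower). The synthase was therefore higher and the cyclooxygenase lower in OB, and this held in every library because the rule for naming required it. Of the lipid binding genes, Fabp7, the brain fatty acid binding protein, rose (456, 16822 and 39115 in OB and 16.7, 22.7 and 16.3 in AG, 1013-fold higher), with OB_257 far below the other OB libraries, and the retinoid binder Crabp1 (116-fold lower, with a counting interval of 39.3 to 563) and the iron carrier Lcn2 (1343-fold lower, with a counting interval of 371 to 11096) fell.

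In the pentose phosphate and glutamine list 4 of the 21 tested members rose and 2 fell. G6pdx, the enzyme that opens the pentose phosphate pathway, read 11398, 10986 and 11188 in AG and 1541, 2465 and 2712 in OB (5.0-fold lower, log2 difference -2.36, SE 0.22). Tkt, transketolase of the same pathway's non-oxidative part, read 9819, 15699 and 21386 in OB and 6043, 5668 and 5325 in AG (2.75-fold higher, log2 difference 1.39, SE 0.26). The intronless copy G6pd2 fell as well (4.44-fold lower), and its reads cannot be told from those of G6pdx with certainty. Glul, glutamine synthetase, read 9046, 5718 and 18188 in OB and 2134, 2068 and 2121 in AG (5.21-fold higher), Gpt2, a mitochondrial alanine transaminase, 6686, 6085 and 7754 in OB and 1287, 1283 and 1216 in AG (5.42-fold higher) and Abat, which degrades GABA, 78.5, 82.8 and 81.5 in OB and 8.34, 6.9 and 8.71 in AG (10.1-fold higher). Aldh5a1, the next enzyme of GABA breakdown, was 7.79-fold higher (1028, 1094 and 1913 in OB and 169, 176 and 172 in AG). The BS values were 55.4, 51.2 and 79.8 for Abat and 1057, 1970.4 and 1947 for Aldh5a1.

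Of the glutathione and NRF2 response genes 8 of 33 fell and 2 rose. Sod3, the secreted superoxide dismutase, read 6962, 6296 and 5702 in AG and 9.95, 24.7 and 48.9 in OB (227-fold lower). Srxn1, sulfiredoxin, read 1904, 1905 and 1938 in AG and 138, 189 and 141 in OB (12.3-fold lower, log2 difference -3.62, SE 0.23), Mgst3, a microsomal glutathione transferase, was 13-fold lower and Gpx8, a peroxidase of the endoplasmic reticulum, 12.6-fold lower. Mt3, the metallothionein of the brain, rose (107, 419.7 and 2505 in OB and 10, 14.8 and 4.36 in AG, 104-fold higher), and Gstm5 was 2.25-fold higher. In the serine, glycine and folate list Gldc, the glycine cleavage decarboxylase, was the only member that rose by every alternative (623, 3661 and 3375 in OB and 258, 212 and 253 in AG, 10.6-fold higher), and limma alone called 6 of 15 higher, and 1 without AG_1, AG_2 or AG_3. Of carbonic anhydrases, Car8, a member without enzyme activity known from Purkinje cells, read 449.8, 159 and 1129 in OB and 5.0, 2.96 and 1.09 in AG (192-fold higher), and Car13 1344, 1341 and 1376 in AG and 15.5, 31.4 and 67.4 in OB (35.5-fold lower). Aldh1b1 was 6.6-fold higher and Aldh1a3, which makes retinoic acid, 9.06-fold lower.

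Of interleukin, interferon and TNF receptors 16 of 32 fell and 2 rose, beside 11.6% and 8.87% of all genes, and the median was -2.34 (-2.18 with genes at 0 set at their bounds). Tnfrsf11b, the secreted decoy osteoprotegerin, read 4544, 4603 and 4626 in AG and 0, 3.81 and 3.26 in OB (1949-fold lower). Tnfrsf1b, the second TNF receptor, read 2861, 2979 and 2764 in AG and 1.11, 0 and 4.35 in OB (1578-fold lower). Il1rl1, the receptor of interleukin 33, was at 0 in OB and read 616, 636 and 683 in AG (at least 205-fold lower). Its neighbour in the RefSeq gene order, Il18rap, read 543, 548 and 625 in AG and 0, 0.952 and 0 in OB (1635-fold lower, with a counting interval of 293 to 64619). Tnfrsf21, the death receptor DR6 known from neurons and oligodendrocyte precursors, went up, with 865, 1804 and 2839.8 in OB and 218, 165 and 159 in AG (10.2-fold higher, log2 difference 3.19, SE 0.46). Adjusted p-values of these 5 ran from 7.47e-07 to 0.00103. In BS the family median was -1.96, and Il1rl1 was at 0 in its 3 libraries as well.

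Of Toll-like receptor and complement genes 4 of 11 fell (median -3.46): Tlr4, the sensor of bacterial lipopolysaccharide, read 2052, 2068 and 2298 in AG and 7.74, 6.66 and 21.7 in OB (178-fold lower), C3, the central complement component, 1373, 1296 and 1312 in AG and 13.3, 0.952 and 5.43 in OB (203-fold lower), C1ra was 170.1-fold lower and Tlr2 7.63-fold lower. The 3 of 10 microglial markers that had values were low in AG and in OB (above), and the part of microglia in these falls was not tested. Among the factors that act downstream of such receptors, 9 of 21 STAT, IRF and NF-kB genes fell. Stat6, which relays interleukin 4, read 2946, 2944 and 2896 in AG and 2.21, 29.5 and 32.6 in OB (137-fold lower), Bcl3, a partner of NF-kB, was 231-fold lower, Cebpd, an acute phase factor, 18.3-fold lower and Socs5, a brake on cytokine signalling, 7.18-fold lower (log2 difference -2.84, SE 0.14).

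Of 31 secreted growth factors 11 fell and 2 rose (median -2.52). The EGF receptor ligand Areg read 1226, 1152 and 1253 in AG and 14.4, 16.2 and 16.3 in OB (77.5-fold lower), the lymphatic growth factor Vegfc 336, 316 and 302 in AG and 19.9, 0.952 and 1.09 in OB (43.5-fold lower), the macrophage growth factor Csf1 202, 221 and 216 in AG and 4.42, 0 and 1.09 in OB (116-fold lower) and the ERBB ligand Nrg1 299, 237 and 262 in AG and 0, 1.9 and 1.09 in OB, which in OB is 3 reads in all. Erbb4, a receptor of Nrg1, moved against its ligand: it was at 0 in AG and read 2098, 1732 and 2747 in OB (at least 754-fold higher). Pros1, protein S and a ligand of TAM receptors, rose (706, 1081 and 615 in OB and 248, 212 and 244 in AG, 3.42-fold higher). Igfbp4, which binds insulin-like growth factors, was called by limma (adjusted p = 0.0456) with 316, 3403 and 1286 in OB and 214, 201 and 189 in AG, and the call was lost under 9 of the 23 alternatives, among them each AG library left out.

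Among G protein-coupled receptors without a classical transmitter 9 of the 45 tested members rose and 7 fell. Gpr17, a receptor of committed oligodendrocyte precursors, read 5076, 2471 and 16883 in OB and 0, 1.97 and 1.09 in AG (8251-fold higher, with a counting interval of 2823 to 40012). Gpr37, which has been tied to myelination, was at 0 in AG and read 4431, 1745 and 953 in OB (at least 817-fold higher), and Tmem229a, its neighbour in the gene order, was at 0 in AG too (229, 5199.8 and 832 in OB, at least 718-fold higher). Agtr1a, the angiotensin receptor, was 17.4-fold higher and Gprc5b 4.04-fold higher (log2 difference 1.97, SE 0.27), whereas Gprc5a, of the same subfamily, read 2872, 2956 and 2728 in AG and 0, 4.76 and 3.26 in OB (1067-fold lower). F2rl1, a receptor cut by trypsin-like proteases, read 1639, 1622 and 1506 in AG and 0, 20.9 and 33.7 in OB (87.3-fold lower). Of adhesion receptors, Adgrb3, a receptor of synapses, was at 0 in AG and read 878, 864 and 2456 in OB (at least 481-fold higher), Adgrl1, latrophilin, was 3.33-fold higher, and Adgra2, a co-receptor for WNT7 in brain vessels, 12.4-fold lower.

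Of the cyclase and phosphodiesterase list, Adcy5 (817, 227 and 635 in OB and 30, 41.4 and 18.5 in AG, 18.7-fold higher) and Pde3a (164, 50.4 and 97.8 in OB and 0, 5.91 and 0 in AG, 52.7-fold higher) rose, and Pde8a (7068, 7410.4 and 7271 in AG and 74.1, 119 and 55.4 in OB, 87.5-fold lower) and the guanylyl cyclase subunit Gucy1a2 (79.9-fold lower) fell. Of protein kinase C and related genes, Prkcq was at 0 in AG and read 143, 761 and 3417 in OB (at least 495-fold higher), Prkcb read 1888, 7746 and 4332 in OB and 20.8, 21.7 and 16.3 in AG (237-fold higher), and Prkcz was 25.1-fold higher. Prkd1, protein kinase D, and Plcg2, a phospholipase C of immune cells, were 4.81-fold lower and 4.78-fold lower. Rgs7bp, an anchor for RGS proteins of neurons, was at 0 in AG and read 921, 966 and 622 in OB, while Rgs4, a brake on Gq signalling, was 26.1-fold lower. Ptprz1, a receptor phosphatase of oligodendrocyte precursors, was at 0 in AG (639, 935 and 2998 in OB, at least 524-fold higher), Ptprf was 11-fold higher and Ptprb, known from vessels, 5.11-fold lower.

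Of 43 exchange factors (GEFs) of the DBL and DOCK type, which activate the small GTPases that shape the actin cytoskeleton, 7 rose and 12 fell. Prex1, a RAC activator, read 3606, 5152 and 6578 in OB and 20, 13.8 and 18.5 in AG (293-fold higher, log2 difference 8.09, SE 0.31), and its paralog Prex2 read 582, 540.1 and 633 in AG and 0, 4.76 and 5.43 in OB (172-fold lower). All OB libraries lay on the same side of AG for each of the paralogs, which the rule for naming requires. Arhgef4 (70.5-fold higher), Arhgef26 (2109.9, 1816 and 2414 in OB and 93.4, 71.9 and 65.3 in AG, 27.5-fold higher) and Dock3, a neuronal RAC activator (2.82-fold higher), rose. Arhgef5 was silent in OB (at least 1041-fold lower), and Dock8, known from immune cells (30.2-fold lower), and Arhgef19 (6.21-fold lower) fell. Adjusted p-values of these 8 ran from 7.47e-07 to 0.00811. In BS, Prex1 read 3208, 5910.1 and 5557 and Prex2 47.8, 0 and 45.3.

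Among the GTPases themselves, Rnd2, which guides neuronal migration, read 7516, 1629 and 9309 in OB and 334, 325 and 313 in AG (19-fold higher), and Rnd1 1179, 1097 and 1141 in AG and 192, 86.6 and 66.3 in OB (9.9-fold lower). Rhob and Rhou were 2.63-fold lower and 3.33-fold lower. Of the GTPase-activating proteins (GAPs) that switch these GTPases off, the RAC inhibitor Chn2 was at 0 in AG (465, 59 and 331 in OB, at least 98.1-fold higher), and Arhgap22 and Arhgap24, also RAC inhibitors, were 23.7-fold lower and 14.5-fold lower. Of the RAS regulators 3 of the 23 tested members rose and 3 fell. Rasgrf2 read 246, 60.9 and 141 in OB and 2.5, 0.986 and 3.27 in AG (66.4-fold higher), and its paralog Rasgrf1 read 74.2, 85.7 and 73 in AG and 0, 0 and 1.09 in OB (223-fold lower, with a counting interval of 39.7 to 8848). Rasgrp2 and Rasl12 were 38.1-fold higher and 32.6-fold higher, and Rras2 and Sipa1l3 7.25-fold lower and 2.26-fold lower.

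Of LIM domain genes 7 of 20 fell and 2 rose (median -1.71), among them Pdlim7 (2167, 2044 and 1909 in AG and 138, 80.9 and 113 in OB, 18.4-fold lower), Fhl3 (10-fold lower), Fhl2 (169.8-fold lower, with a counting interval of 30.1 to 6744) and Prickle3 (64.1-fold lower), while Pdlim4 was 7.27-fold higher. Of myosins 4 of the 26 tested members rose and 8 fell: Myh9, the main non-muscle myosin, read 77941, 73297 and 65156 in AG and 7857, 5169 and 5298 in OB (11.8-fold lower, log2 difference -3.59, SE 0.43), Mylk, the kinase that activates myosin, 1628, 1867 and 1725 in AG and 56.4, 89.5 and 143 in OB (18-fold lower), and Myo1d was 41.1-fold lower. Myo16, a myosin of the brain, rose (316, 1351 and 865 in OB and 66.7, 68 and 53.4 in AG, 13.5-fold higher). Lmna, which makes the nuclear lamins A and C, read 4763, 4431 and 4296 in AG and 7.74, 57.1 and 64.1 in OB (105-fold lower), and the keratin Krt80 was 258-fold lower. Acta2 of the smooth muscle marker list read 55942, 52507 and 52897 in AG and 4.42, 58.1 and 69.6 in OB, in the same direction.

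Of tubulins and microtubule-associated genes 6 of the 35 tested members rose and 4 fell. Tubb4a, the beta tubulin of myelinating cells and neurons, read 8339, 1431 and 4858 in OB and 68.4, 75.9 and 62.1 in AG (70.9-fold higher, log2 difference 5.80, SE 0.65), and Tubb6, a beta tubulin of non-neural cells, 9664, 8696 and 8067 in AG and 193, 1112 and 531 in OB (14.4-fold lower, log2 difference -4.17, SE 0.58). Tuba1c was 9.77-fold lower and Tubb4b 3.52-fold lower. The neural microtubule regulators Stmn3 (389, 533 and 417 in OB, 471-fold higher, with a counting interval of 161 to 2285) and Dpysl4 (1468, 584 and 3585, 108-fold higher) rose, and so did Map6d1 (34-fold higher). Of non-mitotic kinesins 5 of the 15 tested members rose and 2 fell. Kif26a read 1049, 479.6 and 272 in OB and 5.0, 3.94 and 3.27 in AG (147-fold higher), and its paralog Kif26b 895, 890 and 820 in AG and 13.3, 20 and 26.1 in OB (43.9-fold lower). Kif19a, a kinesin that shortens microtubules in cilia, read 3094, 59 and 1228 in OB and 1.67, 3.94 and 0 in AG (781-fold higher). The ependymal marker list, of which 4 of 8 members had values, summed to 105 to 278 in OB and 2107 to 2595 in AG. Most of the AG sum was Foxj1 (mean 2313 in AG and 141 in OB). Of 3 members tested, 2 were called lower and Cfap126 was not called. Dnah5, not tested, averaged 14.9 in OB and 3.14 in AG. Kif5a, a neuronal motor, was 13.6-fold higher, Kif13b 2.79-fold higher and Kif1c 3.48-fold lower.

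Of the YAP and TAZ pathway and target genes 12 of 32 fell and 1 rose (median -1.78). The classical targets Ccn1 and Ccn2 read 44459, 43406 and 42682 in AG and 229.9, 1004 and 1632 in OB and 9146, 8749 and 8799.8 in AG and 1.11, 33.3 and 86.9 in OB, which is 45.5-fold lower and 220-fold lower. Ankrd1, another target, had 1 read over the 3 OB libraries and 1363, 1398 and 1442 normalized reads in AG (4019-fold lower, with a counting interval of 721 to 158792). Vgll3, a TEAD cofactor, was 169-fold lower. Dchs1, a giant cadherin upstream of the pathway, rose (2628, 8896 and 4235 in OB and 393, 423 and 358 in AG, 13.4-fold higher). Adjusted p-values of the 5 ran from 1.26e-06 to 0.00262. In BS, Ccn1 read 64.6, 1040.1 and 584 and Ccn2 4.19, 14.9 and 26.6.

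Of the GATA, RUNX, T-box, TEA, SNAIL and TWIST factors 6 of 18 fell (median -4.03). Twist1, Twist2 and Snai2, known from mesenchyme, read 742, 707 and 729.6 in AG and 1.11, 5.71 and 1.09 in OB, 119, 119 and 112 in AG and 0, 0 and 0 in OB and 459, 433 and 399 in AG and 0, 2.85 and 3.26 in OB. These are 276-fold lower, at least 37.2-fold lower and 211-fold lower. Osr1, a factor of embryonic mesoderm, was 616-fold lower, with a counting interval of 170.1 to 5088. The fibroblast markers, given above, were lower in OB in the same libraries. Of retinoic acid genes 5 of 10 fell (median -2.79), with Rdh10, which makes retinal, at 2420.5, 2395 and 2517 in AG and 167, 229 and 292 in OB (10.6-fold lower, log2 difference -3.44, SE 0.26) and Rarres1 12.6-fold lower. Of KLF and SP factors Klf4, a pluripotency and epithelial factor, read 3124, 2787 and 2521 in AG and 7.74, 210.3 and 89.1 in OB (27.5-fold lower), Sp8, a factor of olfactory bulb interneurons, 499, 453 and 514 in AG and 1.11, 1.9 and 0 in OB (469-fold lower, with a counting interval of 160 to 2274), and Klf9 was 3.26-fold lower.

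Of the NFI, ZIC, MYT1, EBF and BCL11 factors 7 of the 29 tested members rose and 3 fell (median 0.53 as fitted, 0.48 with genes at 0 set at their bounds). Zic1, Zic4 and Zic2, factors of the neural tube and olfactory bulb precursors, read 211, 2534 and 1477, 29.8, 289 and 117 and 600.1, 431 and 408 in OB. Zic1 and Zic4, which lie next to each other, were at 0 in AG (at least 484-fold higher and at least 50-fold higher), and Zic2 was 34.9-fold higher. OB_257 was the lowest OB library for Zic1 and Zic4 and the highest for Zic2. Bcl11a was at 0 in AG (263, 345 and 146 in OB, at least 86.4-fold higher). Zfhx3, a large homeodomain factor (3362, 3486 and 3208 in AG and 508, 111 and 191 in OB, 12.4-fold lower), and Nfix (3.77-fold lower) fell.

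Of the homeodomain factors 4 of the 37 tested members rose and 4 fell, close to the 8.87% and 11.6% of all genes. Pou3f2, a neural progenitor factor, read 210, 2123 and 1499 in OB and 48.4, 43.4 and 71.9 in AG (23.4-fold higher), Onecut2 1366, 325 and 514 in OB and 25, 25.6 and 40.3 in AG (24.3-fold higher), and Vax1, a forebrain factor, 9.95, 75.2 and 347 in OB and 0 in AG (at least 49.5-fold higher). The forebrain factors Lhx8 (180.1, 206 and 179.7 in AG and 5.53, 0 and 0 in OB, 102-fold lower) and Six3 (298, 304 and 261 in AG and 21, 0.952 and 4.35 in OB, 32.8-fold lower) fell, as did Msx2 (56.9-fold lower) and Tgif1 (9.84-fold lower). Forebrain factors were thus found on either side. In BS, Vax1 read 21.8, 1.07 and 3.94 and Pou3f2 3498, 1304 and 968.

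Of Polycomb, DNA methylation and HDAC genes 2 of the 39 tested members rose and 1 fell (median 0.05), below the 8.87% and 11.6% of all genes. Tet1, which oxidizes 5-methylcytosine, read 807, 1744 and 1549.8 in OB and 337, 473 and 403 in AG (3.38-fold higher, log2 difference 1.69, SE 0.32), L3mbtl1 was 8.74-fold higher, and the Polycomb reader Cbx6 read 11726, 10771 and 10572 in AG and 3560, 2897 and 4921 in OB (2.91-fold lower). Of SWI/SNF and CHD genes 5 of the 34 tested members rose and 2 fell: Dpf1, a subunit of the neuronal complex, read 1179, 1850 and 2025 in OB and 233, 213 and 207 in AG (7.74-fold higher, log2 difference 2.91, SE 0.33), Bcl7a was 4.37-fold higher, the ATPase Smarca2 5.74-fold higher and Chd7, the CHARGE syndrome gene, 6.65-fold higher, while Smarcc2 was 4.21-fold lower.

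Among neural RNA-binding and splicing genes 7 of the 31 tested members rose and 6 fell. Elavl3 (2681, 597 and 2061 in OB and 0.834, 4.93 and 6.53 in AG, 434-fold higher), the progenitor gene Msi1 (103-fold higher) and the splicing factor Nova2 (1426, 1995 and 2186 in OB and 27.5, 35.5 and 22.9 in AG, 65.3-fold higher) rose. Lin28b, which blocks the maturation of let-7 miRNAs, read 244, 62.8 and 46.7 in OB and 1.67, 1.97 and 0 in AG, and 0, 3.2 and 8.87 in BS (97.2-fold higher in OB than in AG). Srrm4, a regulator of neuronal microexons, was among the 6 that fell (198, 176 and 175 in AG and 0, 1.9 and 3.26 in OB, 106-fold lower). Zfp36 and Zfp36l2, which destabilize cytokine messages, were 5.62-fold lower and 3.41-fold lower.

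Serpins, inhibitors of proteases, were the family with the highest share of falls in the plot of families: 8 of 14 tested (median -5.41 as fitted, -5.30 with genes at 0 set at their bounds). Serpinb9 (2621, 2599.9 and 2749.6 in AG and 0, 2.85 and 4.35 in OB, 1107-fold lower), Serpinb6b and Serpinb9b lie next to each other, and the latter 2 were at 0 in OB (at least 233-fold lower and at least 109-fold lower). These clade B genes have near-identical copies, so reads may have been split between them. Serpinb8 was 469.7-fold lower.

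Of synaptotagmins and SNARE genes 11 of the 43 tested members rose and 8 fell. Those that rose included Rims3 (2094, 885 and 435 in OB and 0.834, 5.91 and 3.27 in AG, 341-fold higher), Rims4, at 0 in AG (143, 462 and 179 in OB, at least 89.8-fold higher), and Cplx1 (7.74, 358 and 424 in OB, 226-fold higher), for which OB_257 was lowest. Vamp8 and Stx3, SNARE genes of secretory and epithelial cells, fell (1355, 1249 and 1363 in AG and 2.21, 3.81 and 19.6 in OB, 155-fold lower, and 29-fold lower), and so did Unc13c (1091, 1169.8 and 1141 in AG and 0, 0.952 and 8.69 in OB, 353-fold lower) and Syt12 (24.3-fold lower), which like the Rims genes are known from synapses. Of secreted peptides 4 of the 20 tested members rose and 3 fell (median 2.22 as fitted, 2.15 with genes at 0 set at their bounds). Nptx1, a synaptic pentraxin, read 504, 2289.7 and 3666 in OB and 81.7, 101 and 87.1 in AG (24-fold higher), Cbln1, a synapse organizer, 206, 1106 and 119.5 in OB and 6.67, 6.9 and 8.71 in AG (64.2-fold higher), and Nxph1, a neurexin ligand, 5.53, 387 and 559 in OB and 0 in AG (at least 109-fold higher). Its paralog Nxph3 read 286, 215 and 205 in AG and 0, 9.52 and 0 in OB (74.1-fold lower). Cpe, the carboxypeptidase that trims prohormones, fell (29764, 29612 and 29961 in AG and 2265, 4682 and 12247 in OB, 4.65-fold lower).

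Of chaperones 13 of 64 fell and 4 rose. Of the small heat shock genes, Hspb8 read 7451, 6942 and 6999 in AG and 0, 24.7 and 33.7 in OB (366-fold lower), Hspb6 was 15.5-fold lower and Hspb1 14.3-fold lower, while limma called Hspb3 (0 in AG and 4.42, 22.8 and 28.3 in OB) and Hspb9 (1.67, 0 and 1.09 in AG and 18.8, 19 and 18.5 in OB) higher at low levels. Hspa1a was 7.54-fold lower, with the reservation that a near-identical copy lies beside it, and Hspa12b was 3.94-fold higher. Of proteasome genes 3 of 40 fell, below the 11.6% of all genes, with Psmd1 2.06-fold lower, Psmd8 2.17-fold lower and Psmd10 2.68-fold lower. Of cell death genes 3 of the 25 tested members rose and 7 fell. Hrk, a BH3-only activator of neurons, read 561, 165 and 174 in OB and 0.834, 1.97 and 1.09 in AG (231-fold higher), and Casp2 and Diablo were 2.04-fold higher and 2.22-fold higher. Of the caspases of inflammation and of death receptors, Casp8 was at 0 in OB (119, 133 and 136 in AG, at least 41.2-fold lower), Casp4 was 67.5-fold lower and Casp12 62-fold lower (1251, 1224 and 1432 in AG and 3.32, 23.8 and 35.9 in OB). Birc3, an inhibitor of apoptosis induced by NF-kB, was 20.9-fold lower.

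Genes outside the families were among the 60 largest changes in each direction. Of those that rose, several serve ion channels and synapses: of the subunits of the sodium leak channel complex, Unc79 was at 0 in AG and read 186, 1052 and 1347 in OB, and Unc80 read 1757, 556 and 968 in OB and 2.5, 3.94 and 0 in AG (509-fold higher). Kcnj10, the potassium channel of glia, read 2859, 898 and 4269 in OB and 2.5, 0 and 1.09 in AG (2236-fold higher), and Grik3, a kainate receptor, 438, 3691 and 6346 in OB (5508-fold higher, with a counting interval of 1524 to 45485). Dcc, the netrin receptor, read 3079, 3665 and 4308 in OB and 1.67, 0 and 2.18 in AG (2874-fold higher). Others were Lgr5, an R-spondin receptor of stem cells (192, 818 and 2153 in OB, 1642-fold higher, with a counting interval of 454 to 13565), Mfng, which modifies NOTCH (3391-fold higher, with a counting interval of 608 to 133970.4), Acss1, the mitochondrial acetyl-CoA synthetase (2617-fold higher, with a counting interval of 895 to 12693), and Lama1, a laminin at 0 in AG (725, 2584 and 513 in OB and 15.9, 226 and 180.3 in BS). Moxd1 read 23467, 8673 and 9711 in OB, 5.0, 6.9 and 7.62 in AG and 61.2, 210.2 and 569 in BS, and Capn6 6613, 2313 and 8394, 10, 10.8 and 10.9 and 36.1, 29.9 and 312. Limma called neither gene in OB against BS, with an adjusted p of 0.0729 for Moxd1 and 0.0921 for Capn6, so no difference between OB and BS is claimed for them.

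Of the largest falls outside the families, several are growth signals and receptors. Inhba, a subunit of activin, read 3861, 4146 and 4457 in AG and 1.11, 2.85 and 0 in OB (3147-fold lower), and Tgfb1 3128, 2595 and 2236 in AG and 3.32, 5.71 and 4.35 in OB (595-fold lower). Eda2r, a receptor of the TNF receptor family, read 355, 458 and 522 in AG and 0, 1.9 and 0 in OB (629-fold lower, with a counting interval of 174 to 5198). The chemokines Ccl2 (3409, 3120.3 and 3236 in AG and 0, 67.6 and 7.61 in OB, 129.9-fold lower), its neighbour Ccl7 (3311-fold lower, with a counting interval of 594 to 130798) and Cxcl1 (629.8-fold lower, with a counting interval of 215 to 3056) fell. Other large falls were the enzymes Adh7 (208-fold lower), Cbr2 (578-fold lower, with a counting interval of 197 to 2804), Akr1c14 (at least 400.5-fold lower), Steap4, a metalloreductase (271-fold lower), and Ces1g, a carboxylesterase with near-identical copies (at least 306-fold lower). Pdk4, which turns off pyruvate dehydrogenase, read 1929, 1798 and 1897 in AG and 0, 0.952 and 19.6 in OB (274-fold lower). Nlrp2 (658, 667 and 640.3 in AG) and the long noncoding RNA Wincr1 (1181, 1164 and 1225) were at 0 in every OB and BS library. The calcium binders S100a6 (65947, 60555 and 67028 in AG and 3.32, 13.3 and 67.4 in OB, 2303-fold lower), S100a11 (457-fold lower), Anxa1 (1591-fold lower) and Anxa3 (1273-fold lower) all fell.

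The 3 OB libraries did not share every feature. A gene was counted as particular to a library where its value plus 1 was at least 8-fold away from both other OB libraries and the highest OB library held at least 50 normalized reads. This was a count with no test, of 593 genes in all. OB_257 was below the others in 357 genes and above in 71, OB_287 below in 60 and above in 55, and OB_295 below in 5 and above in 45. Of the 357 genes low in OB_257, 125 had 0 reads there, and for 132 all other 8 libraries of the series, the AG and BS ones included, were at least 8-fold above. Ccnd2, cyclin D2 of the G1 phase, had 0 reads in OB_257 but 15093 and 13308 in the other OB libraries, 21908, 21392 and 21980.4 in AG and 22507, 18074 and 16881 in BS. Slc9a7, a sodium-proton exchanger of the Golgi, read 0, 2803 and 3118 in OB, 433, 471 and 499.8 in AG and 705, 3847 and 1602 in BS. Ppic, a cyclophilin, read 0, 1592 and 934, 1226, 1125 and 1324 and 3002, 2333 and 4992, and Egfr, the EGF receptor, 0, 5464 and 717, 1287, 1384 and 1479.9 and 7262, 5350 and 7695. For these 4 genes OB_257 was the only library of 9 without reads.

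Tnc, a matrix glycoprotein of glia, read 2.21, 5954 and 5161 in OB, 326189, 348356 and 322610 in AG and 11799, 18681 and 7835 in BS. The potassium channel Kcnd2 (1.11, 1857 and 2270.3) and the cadherin Cdh4 (4.42, 5821 and 4655) were low in OB_257 and in AG (1.67, 0.986 and 4.36 and 0, 0.986 and 1.09) and high in the other OB libraries. Several genes outside the 8 widest gaps are named here after their values were seen: Hexa, a lysosomal hexosaminidase, read 0, 634 and 1149 in OB and 5132, 5192 and 4800.1 in AG, the TNF receptor Tnfrsf1a 0, 625 and 1184 and 4191, 3968 and 3962, the lymphotoxin receptor Ltbr 0, 492 and 542 and 5238, 4972 and 4662, Gli3, a hedgehog factor, 2.21, 3251 and 913 and 2213, 2310.1 and 2348, and Slc1a3, a glutamate transporter of astrocytes, 88.4, 15575 and 23699 and 753, 855 and 854. Because OB_257 is included in every mean above, genes that rose or fell were required to be called without it as well.

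**Figure D4:**
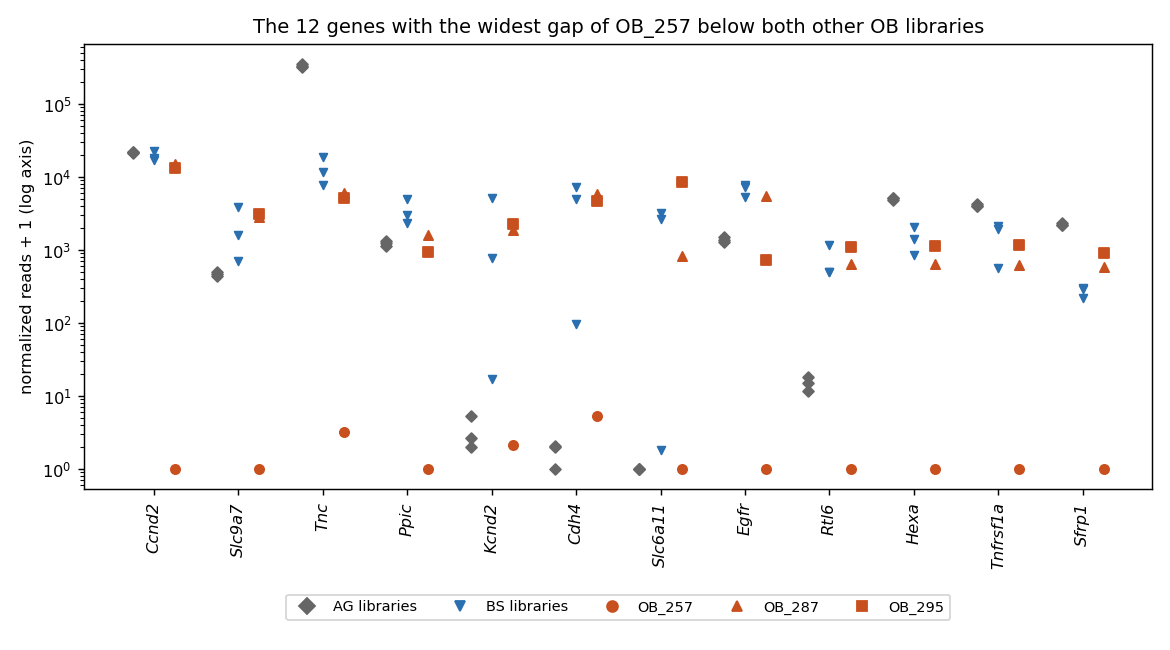
Normalized reads plus 1 (log axis) of the 12 genes with the widest gap of OB_257 below both other OB libraries, 1 point per library, AG grey, BS blue, OB orange. OB_257 (circles) lies at or near the bottom of the axis for each gene, and for Ccnd2, Ppic and Egfr every other library lies far above it.

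Genes above the others in OB_257 included Alx1, a homeodomain factor of the head mesenchyme (895, 0 and 0 in OB, 29.2, 29.6 and 37 in AG), Lad1, a basement membrane gene (991, 2.85 and 6.52), and Serpinf1, the secreted factor PEDF (1233, 23.8 and 30.4). In OB_287 the transcription factors Six2 (624, 1.9 and 551 in OB), Pax9 (249, 0.952 and 381) and Gata6 (56.4, 0 and 125) were low, and Pou3f4 (0, 798 and 13), Neurod1 (4.42, 216 and 3.26) and En1 (0, 111 and 2.17) were high. BS_287, which shares the number in its title, was the highest BS library for Neurod1 (4202, 12.8 and 129) and En1 (1448, 6.4 and 40.4) and the lowest for Pou3f4 (1578, 1780.5 and 2407). OB_295 was high in Hapln1, a link protein of matrix (19.9, 12.4 and 2186), in Gabbr2, a GABA receptor subunit (4.42, 31.4 and 1109), and in Hox genes. Hoxa3 read 14.4, 3.81 and 498 in OB and 0, 656 and 211 in BS, Hoxa5 3.32, 16.2 and 465 and 0, 662 and 161, and Hoxa7 0, 0 and 58.7 and 0, 142 and 13.8. Hox genes are known as factors of the hindbrain and spinal cord rather than of the olfactory bulb. BS_295, with the same number as OB_295, was the highest BS library for these Hoxa genes, and BS_287 was at 0 for each of them. The other genes among the 8 widest gaps of OB_295 mostly differed in this. In BS, Gabbr2 read 29.4, 57.6 and 123, Ackr4 4.19, 17.1 and 25.6, Pnlip 0, 5.33 and 34.5 and Chl1 13.4, 1512 and 3741, each highest in BS_296. Hapln1 was highest in BS_295 but low (0, 6.4 and 0.985). The labels do not say what the numbers in the titles mark.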

How the data were processed

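Total RNA of 9 samples was sequenced after library construction with a TruSeq kit that keeps strand, per the labels' protocols. Tools listed in the submitters' processing notes are HISAT2 2.1.0, featureCounts, Subread 1.6.2, bcl2fastq 1.8.4 and DESeq2 1.20.0, with the build mm9. Which annotation and strand option were used, and how multiply assigned reads were handled, is not given in the sources used here, so antisense partners and near-identical copies are uncertain. The deposited table is a signal of normalized reads for 16260 rows: dividing out 1 size factor per library (0.905 to 1.20) gave whole reads for 100.0% of the authors' values within 0.05 reads. Rows were named from RefSeq (16202) or GENCODE (41), and rows of 1 symbol were added, which gave 14771 genes, 1284 of them with more than 1 row. The 17 unnamed rows held 0.198% to 0.904% of reads and were left out. Genes with 2 or with 3 or more RefSeq transcripts had a median row value of 12.57 and 6.815, against 258.6 for genes with 1, which is why their levels are not compared with those of other genes. Of 362 named genes, 67 have several RefSeq transcripts.

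The 10576 genes with 10 or more normalized reads in 3 or more libraries were tested with limma 3.58.1 (R 4.3.3). The model was fitted to log2(value + 1) of all 9 libraries and had 3 group means, a variance trend, two-sided tests and Benjamini-Hochberg adjustment over all genes, at a threshold of 0.05. edgeR 4.0.16 and DESeq2 1.42.0 ran on the recovered reads. The code was tested on simulated data. Named were up to 4 rises and 4 falls per family and the 60 largest in each direction that met the rule given in the report, leaving out clone names and genes of the Y chromosome and Xist, and not all of them are given here. Where no member of a family met the rule, up to 2 called genes are given. Families were matched by symbol, and the members and lists were chosen with earlier results of these data known. Promoter windows came from RefSeq on GRCm38.p6, which is not the build of the table, and were matched by symbol. OB and AG share no number in their titles. BS_287 and OB_287, and BS_295 and OB_295, do. Figures were drawn with matplotlib 3.10.9.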

Additional observations from a re-analysis of the deposited data

How the results depend on the processing

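With 3 libraries a group and an OB spread larger than that of AG, the count of genes called rests on every AG library: leaving out 1 library at a time moved the count higher in OB, 1687, to between 1109 (without AG_2) and 1921 (without BS_287), and without AG_1 or AG_3 it was 1115 or 1121. With 1 library of a group left out the other 2 are taken to vary like the rest. The total called in OB against AG was 3695, 3728 with the title number as a replicate block, and the block moved 1 other count of calls between groups by over 1.5 times, that of OB against BS below. The numbers do not pair OB with AG, and same-numbered BS and OB libraries deviated together with a correlation of 0.069 for BS_287 with OB_287 and 0.299 for BS_295 with OB_295. In OB against BS, where limma called 0 genes, the count was 233 by DESeq2, 2 without a variance trend, 4 at a pseudocount of 0.5, 6 at a pseudocount of 5, 3 with quantile normalization and 4 with the replicate block, and between 0 and 96 with 1 library left out, the 96 without OB_287. The count of genes particular to 1 OB library, 593 at 8-fold, was 1126 at 4-fold and 337 at 16-fold. Of the values of single genes and of limma calls per family under alternatives, 10921 kept their side or size and 255 counts per family moved. The 9 calls that were lost were all of Igfbp4, which was given without meeting the rule. Genes that met the rule could lose none, so their part of this tally is not a test. The median log2 difference of all genes was -0.01 as deposited, 0.18 with upper-quartile rescaling, 0.08 with quantile normalization and 0.09 in edgeR. Each gene named as changed kept its direction under all of them because the rule for naming required it. Depth limits genes at 0 reads to a level of at most 2.91 normalized reads in AG and 3.14 in OB. The causes of these changes were not tested.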
